A study of Mus musculus with 30 samples.

Results

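Long non-coding RNA genes that host small nucleolar RNAs or act in the nucleus were followed in mHypoA-2/12 cells: *Gas5*, *Snhg1*, *Snhg8*, *Snhg12*, *Snhg15*, *Malat1* and *Neat1*. They were chosen by name, as the rows of the count tables whose Ensembl identifier carries one of these symbols, and are 7 of 56941 genes in the tables. All 7 had enough reads to be tested at both times. These cells are an immortalized line made from adult mouse hypothalamus. QuantSeq, which reads only the 3′ ends of polyadenylated RNA, was used to measure how their transcriptome responds to dose and time of cannabidiol (CBD), a compound of *Cannabis sativa*. The 30 libraries form 10 groups of 3: the vehicle control (DMSO, at the concentration the CBD cultures also held), and CBD at 3, 1.5, 0.75 or 0.325 µM, each for 6 h or 24 h. All groups share the same cell line and medium, and the line stands for 1 kind of hypothalamic cell without its tissue. Nothing in the labels says whether the 3 libraries of a group came from separate cultures, so p-values measure the spread between these libraries only. Libraries are named by group and replicate, with replicates numbered in accession order.

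*Gas5* and the genes of the Snhg family carry small nucleolar RNAs (snoRNAs) in their introns. The snoRNAs guide chemical modification of ribosomal RNA, while the spliced exons leave the nucleus, and for *Gas5* and several others the spliced RNA is a substrate of nonsense-mediated decay, which depends on translation. *Gas5* is best known for accumulating in growth-arrested cells. *Malat1* and *Neat1* are neighbors in the genome and stay in the nucleus, where *Malat1* gathers in nuclear speckles beside splicing factors and *Neat1* forms the scaffold of paraspeckles. The 3′ ends of *Malat1* and of the long form of *Neat1* are made by RNase P cleavage and lack a standard poly(A) tail, whereas the short form of *Neat1* is polyadenylated.

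Positions are given on GRCm38 (GENCODE M21), while the reads were counted on GRCm39. *Gas5* (ENSMUSG00000053332) lies at chr1:161034422-161038539 on the plus strand and holds 10 genes annotated as snoRNAs. *Snhg1* (ENSMUSG00000108414) lies at chr19:8723475-8726443 on the plus strand with 8, and *Snhg12* (ENSMUSG00000086290) at chr4:132308623-132311024 on the plus strand with 5. *Snhg8* (ENSMUSG00000104960, chr3:123507552-123508404) and *Snhg15* (ENSMUSG00000085156, chr11:6525591-6528760) are on the minus strand and hold 1 each, *Snora24* and *Snora9*. *Malat1* (ENSMUSG00000092341, chr19:5795690-5802672) and *Neat1* (ENSMUSG00000092274, chr19:5824708-5845478), both on the minus strand, hold none. *Zbtb37* overlaps *Gas5* on the opposite strand, and the strand setting of the counting is not given in the sources used here, so reads of that overlap could not be told apart.

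Known snoRNA host genes often start within a run of C and T, the terminal oligopyrimidine (TOP) tract of translation-related genes, so the 30 bases before and after the RefSeq start (GRCm38.p6) of each host gene are shown to let the hosts be compared. Capitals mark the unbroken run of C and T that covers the start base. RefSeq gives *Gas5* 2 starts, at chr1:161034601 and chr1:161035166.
Gas5, first start: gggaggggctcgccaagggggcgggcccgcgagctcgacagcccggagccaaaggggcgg
Gas5, second start: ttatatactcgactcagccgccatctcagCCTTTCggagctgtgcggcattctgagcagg
Snhg1: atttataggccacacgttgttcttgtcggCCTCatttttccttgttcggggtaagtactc
Snhg8: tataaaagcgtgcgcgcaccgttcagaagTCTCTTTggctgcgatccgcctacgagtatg
Snhg12: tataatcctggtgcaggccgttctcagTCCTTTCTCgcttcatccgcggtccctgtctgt
Snhg15: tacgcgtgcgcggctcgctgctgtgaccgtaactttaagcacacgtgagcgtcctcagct
The run was 9 bases long in *Snhg12*, 7 in *Snhg8*, 6 at the second start of *Gas5* and 4 in *Snhg1*. It was 0 at the start of *Snhg15* and at the first start of *Gas5*. A run of at least 5 bases covered the start in 3330 of 32851 promoters of the RefSeq table (10.1%), and one of at least 4 in 13.97%. The search read only the strand that has the same sequence as the RNA.

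Because the reads come from 3′ ends primed on A, the last 60 bases of the annotated RNA are shown for *Snhg1*, *Malat1* and both forms of *Neat1*, on which several of the results turn. Capitals mark the polyadenylation signal AATAAA.
Snhg1: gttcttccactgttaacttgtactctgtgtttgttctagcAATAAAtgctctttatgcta
Malat1: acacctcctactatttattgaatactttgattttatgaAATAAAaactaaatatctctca
Neat1, long form: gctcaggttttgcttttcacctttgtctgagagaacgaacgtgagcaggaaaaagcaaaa
Neat1, short form: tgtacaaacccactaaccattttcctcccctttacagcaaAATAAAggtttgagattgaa
The long form of *Neat1* (20771 bases) had neither AATAAA nor ATTAAA in its last 40 bases, and the short form (3004 bases) had AATAAA. In *Malat1*, the longest run of A, 12 bases at positions 6674 to 6685 of the 6983-base transcript, lies 298 bases before the annotated end and is capitalized in its surroundings.
Malat1, A run: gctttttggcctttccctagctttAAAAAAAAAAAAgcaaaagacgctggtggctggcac
The longest run of A in the long form of *Neat1* was 7 bases. Oligo(dT) priming at these A runs was not tested here, and the short and long forms of *Neat1* could not be told apart by gene counts. The annotated end of *Malat1* need not be the end left by RNase P. Where that cleavage lies relative to the A run was not examined.

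Reads on genes ranged from 1839621 to 4420675 per library, with a median of 2641725, and levels are given as CPM, the counts scaled by TMM library size. Levels of different genes are not compared. A total of 17.7% to 22.2% of uniquely mapped reads lay outside genes. Of 12 neuronal markers, 9 passed the filter (*Tubb3* at 49.3 CPM), but *Rbfox3*, *Snap25* and *Syp* averaged 0.589, 0.0406 and 0.21 CPM, and 0 of 4 hypothalamic neuropeptide genes (*Agrp*, *Npy*, *Pomc*, *Cartpt*) passed. Of 9 mesenchymal markers, 8 passed, with *Vim* at 2209 CPM and *Col1a1* at 2063 CPM, and 2 of 5 astrocyte, 0 of 5 oligodendrocyte and 2 of 5 microglial markers passed. Similarity was the mean correlation of a library with the others of the same time. It was lowest for CBD 3 µM replicate 1 at 24 h (0.938). Vehicle replicate 3 (0.946) and CBD 0.325 µM replicate 2 (0.949), both at 6 h, came next. Fold changes of the members that rest on these 3 libraries are given with and without them, but correlations of members with other genes are not.

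Variation over all libraries differed among the members and was widest for *Snhg15* and *Snhg8*. It includes differences between doses and times as well as the spread between replicates. Over all 30 libraries, *Gas5* ranged from 142 to 225 CPM with a coefficient of variation of 12.2%, *Neat1* from 369.7 to 608 CPM with 12.0%, and *Snhg1* from 129.8 to 275 CPM with 18.4%. *Snhg12* ranged from 16.3 to 37.1 CPM (19.8%) and *Malat1* from 1785 to 4694 CPM (25.1%). *Snhg8* ranged from 5.92 to 80.8 CPM (40.05%) and *Snhg15* from 3.16 to 22.5 CPM (44.7%), the latter resting on 8 to 81 reads a library. The 3 least similar libraries hold some of the extremes. Vehicle replicate 3 at 6 h had the highest value of 3 members and the lowest of 1 within its time. CBD 0.325 µM replicate 2 at 6 h had the lowest of 3 and the highest of 1, and CBD 3 µM replicate 1 at 24 h the lowest of 2. Outside these libraries, CBD 0.325 µM replicate 1 at 24 h had the highest of 3.

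**Figure D1:**
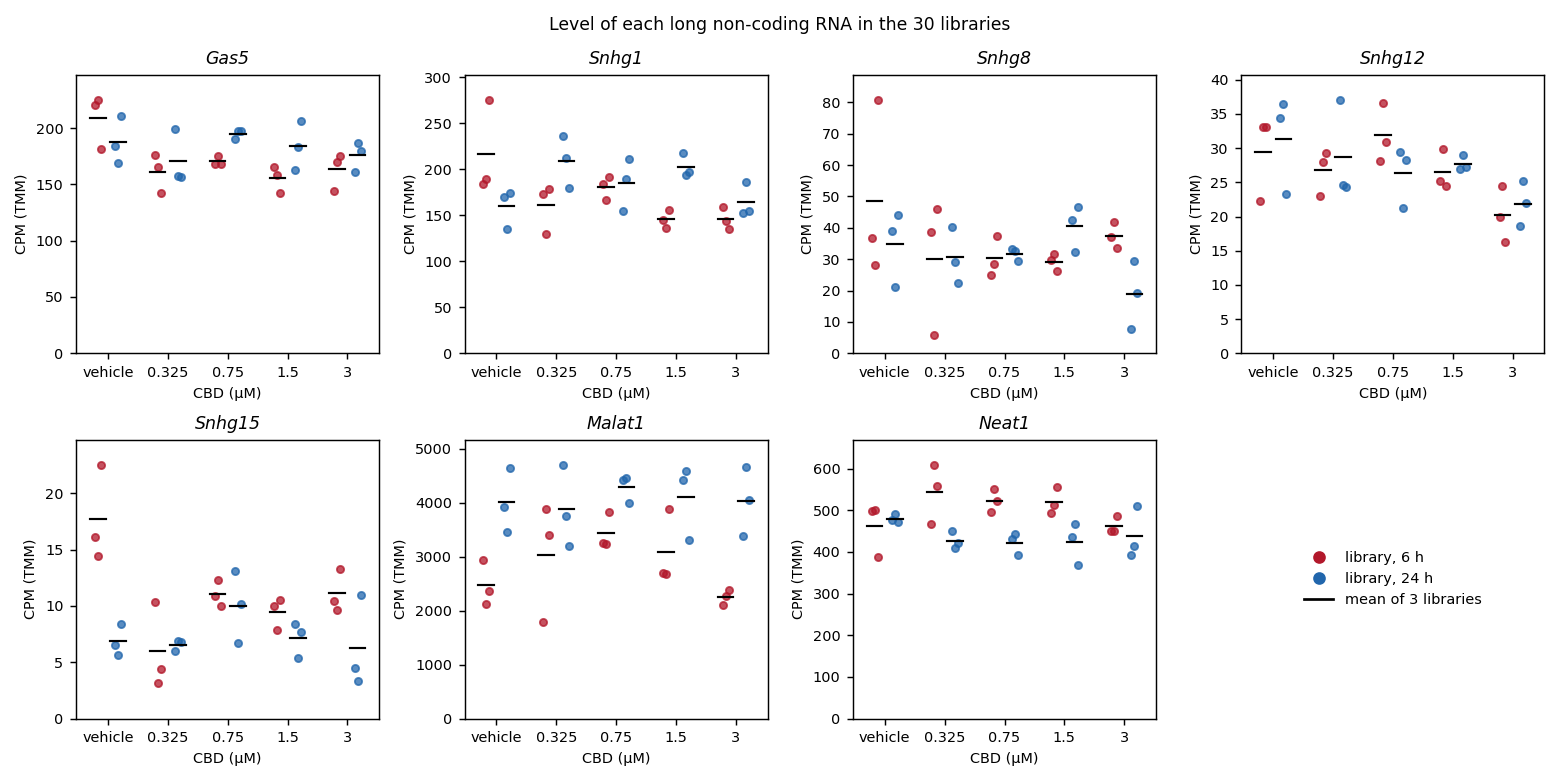
Levels of the 7 long non-coding RNAs in every library, in CPM on a linear axis from 0, for vehicle and each CBD dose at 6 h (red) and 24 h (blue), with points for libraries and bars for the means of 3. At 6 h all 12 CBD libraries of *Gas5* (142 to 177 CPM) and *Snhg15* (3.16 to 13.3 CPM) sit below the 3 vehicle libraries. The 12 and the 3 did not overlap for 1.46% of all genes.

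At 6 h, 2 comparisons of CBD with vehicle passed the FDR threshold of 0.1, both with lower levels of a snoRNA host RNA: *Snhg15* at 0.325 µM and *Snhg1* over the 4 doses together. *Gas5* was below vehicle in every CBD library without passing. The nuclear RNAs *Malat1* and *Neat1* did not pass at any dose. At each dose, 0.2% (0.325 µM), 0.0749% (0.75 µM), 0.0999% (1.5 µM) and 0.05% (3 µM) of 12012 genes tested passed the quasi-likelihood F-test of edgeR. Of 28 tests of the 7 members at the 4 doses, 1 passed. Over the mean of the 4 doses, 1 of 7 members passed, against 0.749% of all genes. The 4 doses share the same 3 vehicle libraries, so these comparisons are not independent of each other. As the cultures were sequenced in bulk, fewer cells with an RNA and less RNA per cell cannot be told apart.

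*Gas5* was at 221, 225 and 182 CPM in the vehicle libraries at 6 h. It was at 177, 165 and 142 CPM at 0.325 µM, 168, 175 and 168 CPM at 0.75 µM, 165, 159 and 143 CPM at 1.5 µM, and 144, 170.2 and 176 CPM at 3 µM. Every CBD library lay below every vehicle library, at each dose and over all 12. The mean was 209 ± 24.0 CPM (SD, n = 3) in vehicle and 163 ± 12.8 CPM (SD, n = 12) with CBD, but the edgeR test over the 4 doses did not pass (log2 fold change −0.36, standard error 0.11, FDR = 0.165). By dose, the log2 fold changes were −0.38, −0.29, −0.43 and −0.36 from the lowest to the highest, with FDR values from 0.35 to 0.634. Such a lack of overlap is not rare: it held for 10.6%, 11.7%, 11.6% and 12.8% of all genes from the lowest dose to the highest, and for 1.46% over all 12 CBD libraries. The test over the doses passed in 1 of 15 fits that left out 1 library. That was without vehicle replicate 3, the lowest of the vehicle libraries (log2 fold change −0.46, FDR = 0.043), while without vehicle replicate 2 it was −0.30 (FDR = 0.472). Without the 3 least similar libraries it was −0.46 (FDR = 0.0208).

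*Snhg1*, the host of several box C/D snoRNAs, was at 184, 189 and 275 CPM in vehicle at 6 h. It was at 173, 129.8 and 179 CPM at 0.325 µM, 184, 167 and 192 CPM at 0.75 µM, 145, 136 and 156 CPM at 1.5 µM, and 159, 144 and 135 CPM at 3 µM. The libraries of 0.325, 1.5 and 3 µM all lay below vehicle, while 0.75 µM overlapped it. At these 3 doses, groups did not overlap for 10.6%, 11.6% and 12.8% of all genes. In total, 10 of 12 CBD libraries lay below the lowest vehicle value, and the share of all genes with such a count was not computed. Over the 4 doses *Snhg1* fell to 0.724 times its vehicle level (edgeR FDR = 0.0985), with a log2 fold change of −0.47 and a standard error of 0.12. By dose, the log2 fold changes were −0.44, −0.27, −0.58 and −0.57, with FDR values of 0.361, 0.737, 0.208 and 0.271. Vehicle replicate 3, with 275 CPM, moved the value most: without it the log2 fold change over the doses was −0.24 (FDR = 0.411), without the 3 least similar libraries it was −0.21 (FDR = 0.366), and the call held in 3 of 15 fits that each left out 1 library.

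*Snhg15*, host of *Snora9*, was at 16.1, 14.4 and 22.5 CPM in vehicle at 6 h, from 29, 27 and 81 reads. It was at 10.3, 3.16 and 4.37 CPM at 0.325 µM, 10.9, 12.3 and 10.003 CPM at 0.75 µM, 10.005, 7.87 and 10.6 CPM at 1.5 µM, and 10.4, 9.60 and 13.3 CPM at 3 µM. As for *Gas5*, all 12 CBD libraries lay below all 3 vehicle libraries, and such a lack of overlap held for 1.46% of all genes. At 0.325 µM *Snhg15* fell to 0.333 times vehicle (edgeR FDR = 0.0977), with a log2 fold change of −1.59 and a standard error of 0.36. At 0.75, 1.5 and 3 µM the log2 fold changes were −0.70, −0.92 and −0.69, with FDR values of 0.638, 0.498 and 0.689. Over the 4 doses it was −0.98 (standard error 0.26) and missed the threshold with edgeR FDR = 0.106. It passed in 1 of 15 fits that left out 1 library, without CBD 0.325 µM replicate 1 (−1.14, FDR = 0.0199). Without vehicle replicate 3 it was −0.74 (FDR = 0.31), and without the 3 least similar libraries −0.66 (FDR = 0.271). The lowest dose rested on 26, 8 and 10 reads, and its call held in 2 of 15 fits that left out 1 library. Its FDR was 0.156 without vehicle replicate 3 (log2 fold change −1.34) and 0.303 without CBD 0.325 µM replicate 2 (−1.27). Without the 3 least similar libraries it was 0.239, with a log2 fold change of −1.04.

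*Snhg8*, host of *Snora24*, was at 36.7, 28.3 and 80.8 CPM in vehicle at 6 h, and between 5.92 and 45.9 CPM in the 12 CBD libraries. The groups overlapped at every dose. Its log2 fold change over the 4 doses was −0.67 (95% interval −1.28 to −0.057, edgeR FDR = 0.428) and 0.081 without the 3 least similar libraries. *Snhg12* was at 22.2, 33.1 and 33.0 CPM in vehicle and between 16.3 and 36.6 CPM in CBD-treated cells, again with overlap at every dose. Its log2 fold change was −0.19 over the doses (95% interval −0.56 to 0.17, FDR = 0.78) and −0.55 at 3 µM, the dose with the lowest values (19.9, 24.4 and 16.3 CPM, FDR = 0.604).

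*Malat1*, the speckle RNA, was at 2932, 2124 and 2358 CPM in vehicle at 6 h. It was at 1785, 3874 and 3408 CPM at 0.325 µM, 3247, 3241 and 3835 CPM at 0.75 µM, 2702, 2671 and 3881 CPM at 1.5 µM, and 2110.2, 2267 and 2387 CPM at 3 µM. Only the libraries of 0.75 µM lay entirely above vehicle, and those of 3 µM lay within its range or just below it. At 0.75 µM the groups did not overlap for 11.7% of all genes. The log2 fold changes were 0.28, 0.48, 0.32 and −0.13 from the lowest dose to the highest, and 0.24 over all (standard error 0.16, edgeR FDR = 0.66). *Neat1* was at 498, 502 and 388 CPM in vehicle and from 450.4 to 608 CPM in the CBD libraries, which overlapped vehicle at every dose. Its log2 fold change over the doses was 0.15 (95% interval −0.070 to 0.36, FDR = 0.696).

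**Figure D2:**
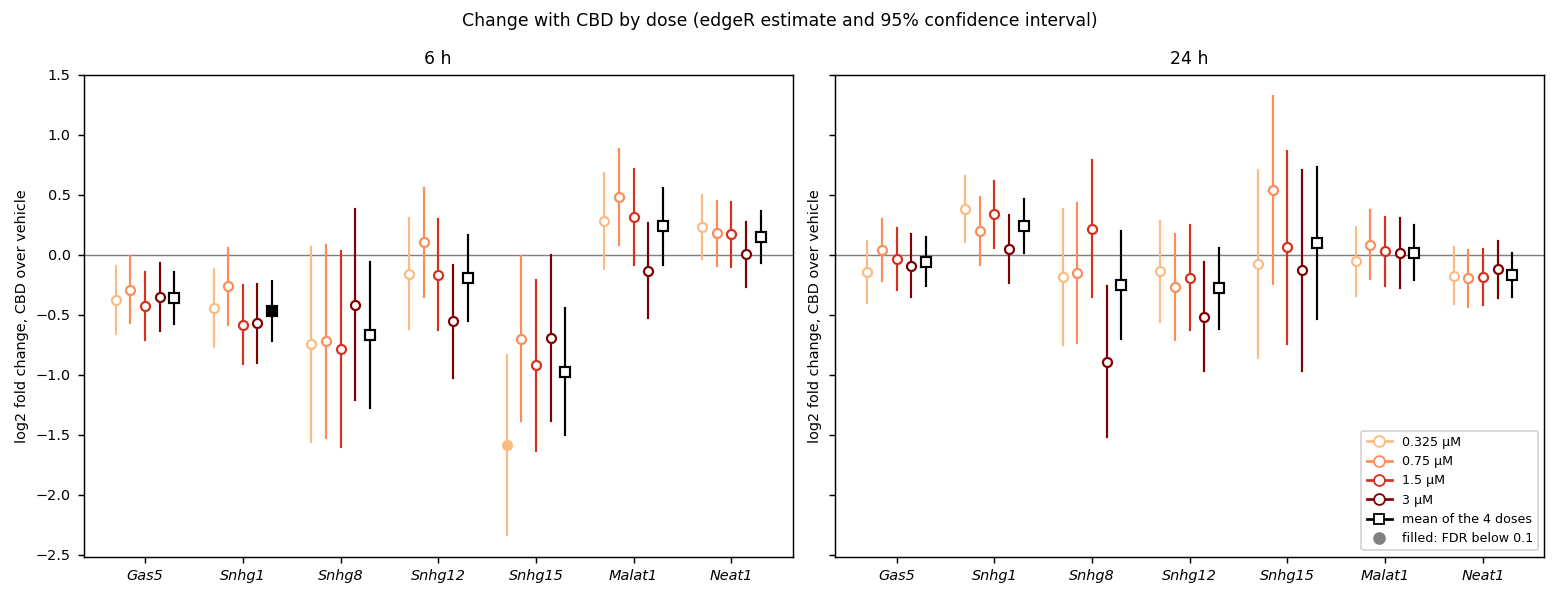
Log2 fold change of CBD over vehicle (edgeR estimate with 95% confidence interval) for each long non-coding RNA at 6 h (left) and 24 h (right), with circles for the 4 doses, squares for their mean and filled symbols where the FDR was below 0.1. At 6 h the circle of *Snhg15* at 0.325 µM (−1.59) and the square of *Snhg1* (−0.47) are filled, and at 24 h none is.

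**Figure D3:**
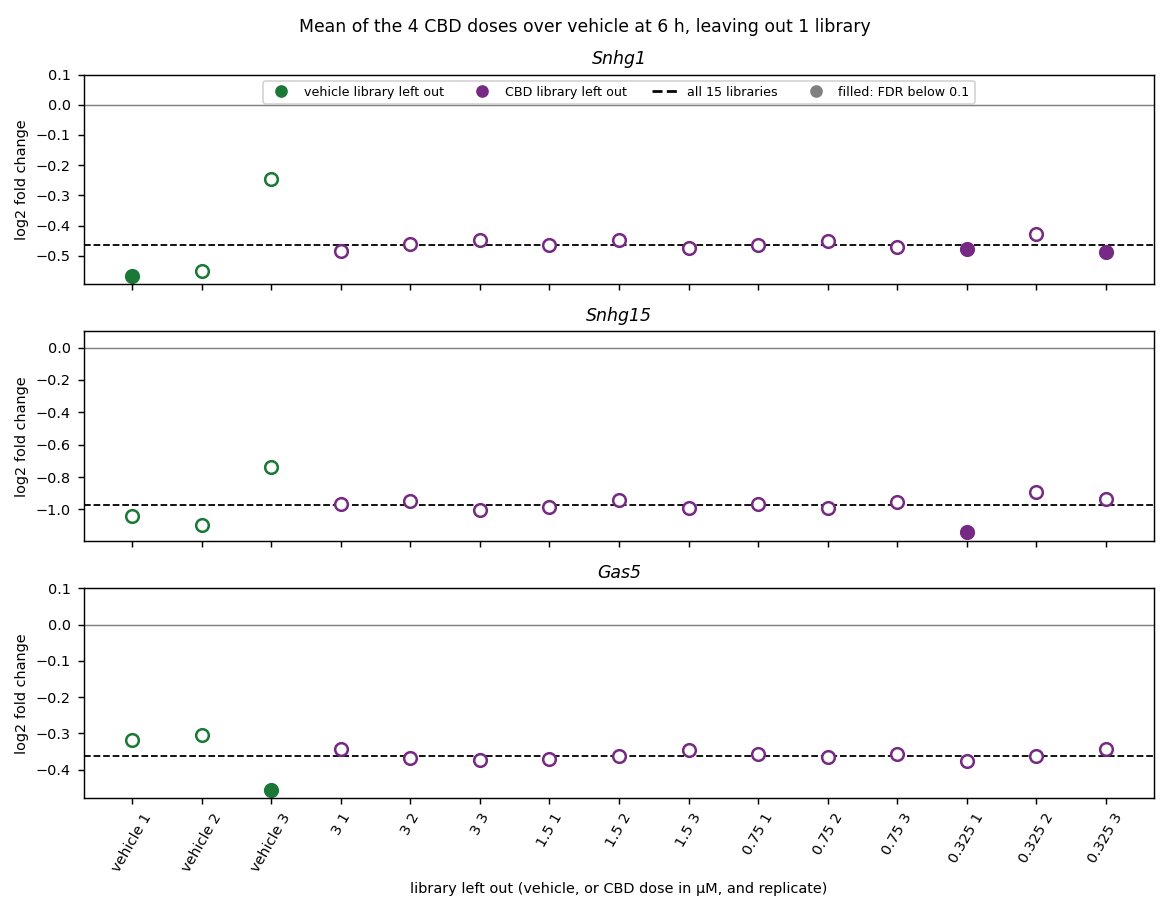
Log2 fold change of the 4 CBD doses together over vehicle at 6 h for *Snhg1*, *Snhg15* and *Gas5* in each fit that left out 1 library (x axis), with a dashed line for all 15 libraries and filled points where the FDR was below 0.1. Without vehicle replicate 3, *Snhg1* lies at −0.24 and *Gas5* at −0.46, against −0.47 and −0.36 with all libraries.

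No member showed a trend with dose at 6 h that passed the test. The slope per doubling of dose among the 4 CBD groups was +0.24 for *Snhg15* (standard error 0.11, unadjusted p = 0.0412, edgeR FDR = 0.996) and −0.13 for *Malat1* (standard error 0.058, unadjusted p = 0.0376, FDR = 0.996). These were the 2 of 7 members with an unadjusted p under 0.05. Of all 12012 genes, 0% passed for the slope and 0% for any difference among the doses, with 513 and 452 genes at an unadjusted p under 0.05, and DESeq2 called 0 members in both.

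At 24 h, none of the 28 member tests by dose passed, and none of the 7 passed over the 4 doses, by edgeR or by DESeq2. At an unadjusted p under 0.05 by edgeR there were 1, 0, 1 and 2 members from the lowest dose to the highest, and 1 over the doses. Of all 12118 genes, 1009, 924, 889 and 1110 had such a p at the 4 doses, and 815 over the doses. The share of all 12118 genes that passed was 0.066%, 0.0825%, 0.0413% and 0.00825% at the 4 doses and 0.107% over all. The slope with dose was passed by 3.13% and any difference among the doses by 1.93% of genes, and each by 0 of 7 members. At such shares, 0 of 7 does not set the members apart from other genes.

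*Snhg1* was at 169.6, 135 and 174 CPM in vehicle at 24 h. It was at 236, 212 and 179 CPM at 0.325 µM, 155, 189.5 and 211 CPM at 0.75 µM, 218, 193 and 197 CPM at 1.5 µM, and 153, 186 and 154 CPM at 3 µM. Here 9 of 12 CBD libraries lay above all vehicle libraries and none below, opposite to 6 h. The share of all genes with such a count was not computed. There was no overlap at 0.325 µM (13.3% of all genes) and 1.5 µM (13.1%). The log2 fold changes at these doses were 0.38 and 0.34 (edgeR FDR = 0.465 and 0.597). Over the doses it was 0.24 (standard error 0.11, FDR = 0.727), and 0.14 without vehicle replicate 2. Its slope per doubling of dose was −0.081 (standard error 0.041, FDR = 0.317).

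*Neat1* was at 475, 492 and 471 CPM in vehicle at 24 h. It was at 451, 410.3 and 421 CPM at 0.325 µM, 432, 443 and 393 CPM at 0.75 µM, 435, 466 and 369.7 CPM at 1.5 µM, and 393, 414 and 509 CPM at 3 µM. The CBD libraries lay below vehicle in 11 of 12 cases, the exception being CBD 3 µM replicate 3. The share of all genes with such a count was not computed. At 0.325, 0.75 and 1.5 µM the groups did not overlap, as held for 13.3%, 15% and 13.1% of all genes, and over all 12 CBD libraries by 0.611% of genes and 0 members. The log2 fold changes were −0.17, −0.20, −0.19 and −0.12 by rising dose and −0.17 over all (95% interval −0.35 to 0.015, edgeR FDR = 0.784).

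The other members did not pass at 24 h, and their CBD libraries overlapped vehicle at every dose. *Gas5* was at 184, 169 and 211 CPM in vehicle and from 156 to 206 CPM in the CBD libraries (log2 fold change −0.058, 95% interval −0.26 to 0.15). *Malat1* was at 3922, 3461 and 4642 CPM in vehicle and from 3199 to 4694 CPM in CBD-treated cells, with a log2 fold change of 0.018 (95% interval −0.21 to 0.25). *Snhg15* (6.52, 5.64 and 8.42 CPM in vehicle, 3.36 to 13.1 CPM with CBD) had a log2 fold change of 0.098 with an interval from −0.53 to 0.73. *Snhg12* was at 34.5, 36.5 and 23.2 CPM in vehicle and 18.6, 25.2 and 21.9 CPM at 3 µM (log2 fold change −0.52, FDR = 0.511), and its change over the doses was −0.28 (95% interval −0.62 to 0.059). *Snhg8* was at 38.9, 21.2 and 44.1 CPM in vehicle and 7.68, 29.4 and 19.3 CPM at 3 µM, with a log2 fold change there of −0.89 (standard error 0.31, FDR = 0.507). This value turned on single libraries: without CBD 3 µM replicate 1 it was −0.52 (FDR = 0.92), and without CBD 3 µM replicate 2 it was −1.38 (FDR = 0.0405). Over the 4 doses *Snhg8* was at −0.25 (95% interval −0.71 to 0.20).

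The second question was how the members differed with time. Between 6 h and 24 h in vehicle cells, *Malat1* rose and *Snhg1* and *Snhg15* fell. In CBD-treated cells, *Malat1*, *Snhg1* and *Gas5* rose and *Neat1* fell. All 30 libraries were fitted together for these tests, with 12790 genes. In vehicle cells 3 of 7 members passed, against 26.7% of all genes, and in CBD-treated cells 4 of 7, against 53.6%. Groups did not overlap for 3 members in vehicle (31.8% of all genes) and for 0 in the CBD libraries (3.1%). Time since treatment and anything else that differed between the 6 h and the 24 h cultures cannot be told apart.

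*Malat1* rose in vehicle cells from 2471 ± 416 to 4009 ± 595 CPM (SD, n = 3 each), with every 24 h library above every 6 h library. The log2 fold change was 0.70 (standard error 0.19, edgeR FDR = 0.00666), and it passed in each of the 30 fits that left out 1 library. In CBD-treated cells it rose from 2951 ± 731 to 4078 ± 551 CPM (SD, n = 12 each), a log2 fold change of 0.48 (standard error 0.093, FDR = 4.95e-05), with overlap between the times. Its response to CBD was not shown to differ between the times (difference −0.22, 95% interval −0.63 to 0.20, FDR = 0.927).

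*Neat1*, its neighbor, was at 463 ± 64.2 CPM at 6 h and 479 ± 11.03 CPM at 24 h in vehicle (SD, n = 3 each; log2 fold change 0.054, edgeR FDR = 0.802). In CBD-treated cells it fell by 0.26 on the log2 scale, from 513 ± 48.3 to 428 ± 37.3 CPM (SD, n = 12 each; standard error 0.061, FDR = 0.000645), which passed in each of 30 fits without 1 library. The difference between the times in its response to CBD was −0.31 (standard error 0.14, FDR = 0.716).

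*Snhg15* fell in vehicle cells from 17.7 ± 4.26 to 6.86 ± 1.42 CPM (SD, n = 3 each), to 0.382 times its level at 6 h (log2 fold change −1.39, standard error 0.36, edgeR FDR = 0.00502), without overlap. It passed in each of 30 fits without 1 library, with FDR at most 0.0524. In CBD-treated cells it was at 9.40 ± 2.97 and 7.48 ± 2.80 CPM (SD, n = 12 each; log2 fold change −0.31, FDR = 0.179). Its response to CBD at 24 h minus that at 6 h was 1.076 (95% interval 0.26 to 1.89, FDR = 0.528).

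*Snhg1* fell in vehicle cells from 216 ± 51.1 to 159.5 ± 21.7 CPM (SD, n = 3 each; log2 fold change −0.45, standard error 0.15, edgeR FDR = 0.0315). It rose in CBD-treated cells from 158 ± 20.8 to 190.3 ± 26.8 CPM (SD, n = 12 each; log2 fold change 0.27, standard error 0.076, FDR = 0.00414). Its log2 response to CBD was higher at 24 h than at 6 h by 0.71 (standard error 0.17, FDR = 0.0755), and *Snhg1* was the 1 member of 7 to pass this test of the interaction, against 0.235% of all genes. Both results with the vehicle at 6 h rested on its replicate 3. Without it the fall in vehicle cells was −0.21 (FDR = 0.394) and the difference between times was 0.49 (FDR = 0.441), and this difference passed in 15 of 30 fits without 1 library. The fall in vehicle cells also missed the threshold without vehicle replicate 2 at 24 h (−0.33, FDR = 0.171), without the 3 least similar libraries (−0.22, FDR = 0.321), with reads outside genes as a covariate (−0.29, FDR = 0.192), and when only the vehicle libraries were fitted. The difference between times missed it without the 3 least similar libraries (0.47, FDR = 0.265) and with that covariate (0.58, FDR = 0.175). The rise in CBD-treated cells passed in each of 30 fits without 1 library.

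*Gas5* did not pass in vehicle cells (log2 fold change −0.15, edgeR FDR = 0.452) and rose by a log2 fold change of 0.16 in CBD-treated cells (standard error 0.065, FDR = 0.0447), from 163 ± 12.8 to 181 ± 17.98 CPM (SD, n = 12 each). The difference between the times was 0.31 (standard error 0.14, FDR = 0.752). *Snhg8* (−0.53 in vehicle, −0.10 in CBD-treated cells) and *Snhg12* (0.082 and 0.0027) did not pass in either, and their differences between the times were 0.42 (FDR = 0.929) and −0.080 (FDR = 0.975). Without the 3 least similar libraries, *Snhg8* in vehicle was at 0.11.

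**Figure D4:**
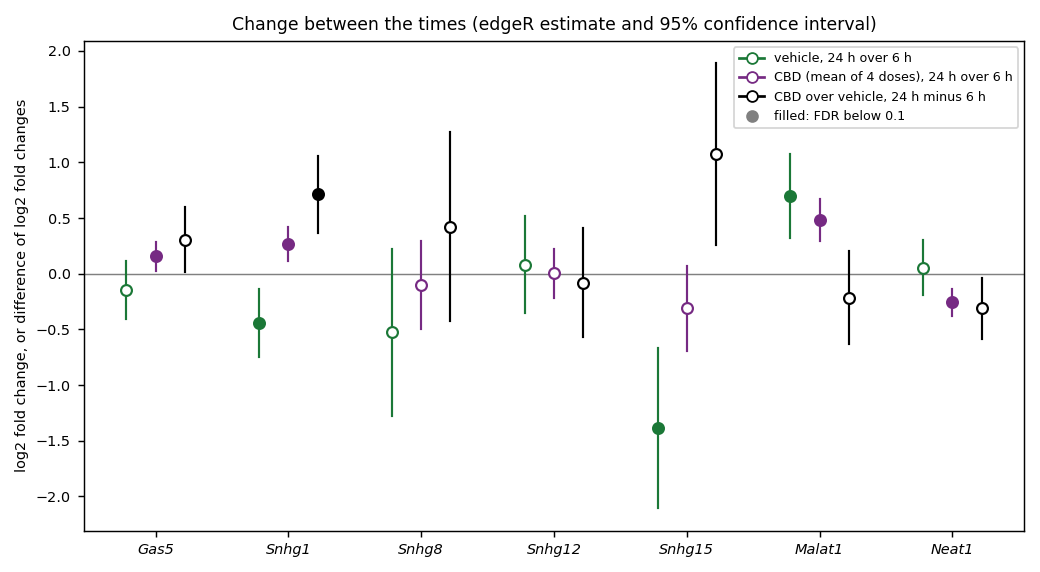
Log2 fold change of 24 h over 6 h in vehicle cells and in CBD-treated cells (mean of the 4 doses), and the difference in CBD response (24 h minus 6 h), with 95% confidence intervals and filled points where the FDR was below 0.1. *Malat1* is above 0 in both, while *Snhg1* is at −0.45 in vehicle and 0.27 in CBD-treated cells.

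The vehicle libraries at 6 h differed in depth and in reads outside genes: replicate 3 had 3574833 reads on genes and 17.9% of reads outside genes, while replicates 1 and 2 had 1839621 and 1919498 reads and 21.4% and 20.8%. With the percentage outside genes as a covariate, the log2 fold change of *Snhg1* over the doses at 6 h was −0.48 (edgeR FDR = 0.00644). That of *Gas5* was −0.35 (FDR = 0.0573), and *Snhg15* at 0.325 µM passed with FDR = 0.00773. Without the covariate, the log2 fold changes of *Snhg1* and *Gas5* were much the same (−0.47 and −0.36). Over all genes, the calls over the doses at 6 h went from 90 to 329 with it, so lower FDR values were not particular to the members. The same covariate ended 2 calls of *Snhg1*, its fall between the times in vehicle cells and the difference between times. With log2 reads as the covariate, *Gas5* over the doses was at −0.31 (FDR = 0.208). The part that depth or reads outside genes play in the values of vehicle replicate 3 was not tested beyond these fits.

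Deviations of the members from their group means were compared pairwise and with 3 measures of each library (reads on genes, reads outside genes and mitochondrial reads), 42 relations in all. One passed: *Snhg1* and *Snhg8* deviated together over the 30 libraries (Pearson's r = 0.72, permutation p = 0.00128, adjusted p = 0.0538, Spearman's rho = 0.69, permutation p = 0.00227, adjusted p = 0.0953). Within 6 h r was 0.80 (permutation p = 0.049, adjusted p = 0.376) and within 24 h 0.61 (permutation p = 0.0219, adjusted p = 0.23). Without the 2 libraries farthest from the median of *Snhg1*, vehicle replicate 3 and CBD 0.325 µM replicate 2 at 6 h, r was 0.54 (permutation p = 0.0255, adjusted p = 0.536), so the call rested on these libraries.

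The genes whose levels followed each member most closely over the 30 libraries, after removal of the mean of each time, are given as a description. They were ranked by Pearson's r among 8685 genes with a mean of at least 10 CPM (8686 for *Snhg15*), and share library and depth with the member. The ranking was not repeated without the 3 least similar libraries. Those libraries hold the lowest and highest values of *Snhg8* at 6 h (5.92 and 80.8 CPM) and its lowest at 24 h (7.68 CPM). *Snhg1* was closest to *Ahnak* (r = 0.88), to *Zfas1*, another snoRNA host (r = 0.83), and to *Eif3e*, a subunit of a translation initiation factor (r = 0.79). *Snhg8* was closest to *Sem1* (0.92), *Ndufa1* (0.91) and *Anxa1* (0.91), and *Malat1* to *Ncam1* (0.83), *Purb* (0.81) and *Cald1* (0.80). *Neat1* was closest to *Crebbp* (0.78), *Nrd1* (0.77) and *Pdia4* (0.76), and *Gas5* to *Thyn1* (0.70), *Ndrg1* (0.66) and *Sqstm1* (0.65). The likeness was weakest for *Snhg12* (*Gpr137b*, 0.65, *Ddx55*, 0.61, and *Vps37a*, 0.57) and *Snhg15* (*Cnot8*, 0.66, *Dmac1*, 0.65, and *H2-D1*, 0.63).

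The genes named here that neighbor the members in the genome did not pass in any of the 3 comparisons tabulated (the 4 doses against vehicle at 6 h and 24 h, and vehicle between the times). *Slc3a2*, the amino acid transporter subunit beside *Snhg1*, had a log2 fold change of −0.19 at 6 h (standard error 0.15, edgeR FDR = 0.726), where *Snhg1* was at −0.47. *Zbtb37*, opposite *Gas5*, was at 4.56 CPM on average with a log2 fold change of −0.10 at 6 h (FDR = 0.968). *Prss12* beside *Snhg8*, *Trnau1ap* beside *Snhg12* and *Frmd8* beside *Neat1* had FDR values of 0.532, 0.859 and 0.999 at 6 h, and *Myo1g*, *Gm37376* and *Frmd8os* had too few reads to be tested.

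Of other snoRNA host genes without a protein product, 8 of 15 listed were tested at 6 h, and 1 fell over the 4 doses. This was *Zfas1*, host of box C/D snoRNAs, with a log2 fold change of −0.74 (standard error 0.13, edgeR FDR = 0.00476). Whether values of *Zfas1*, here and below, rest on single libraries was not examined. The median of the 8 was −0.29, beside −0.019 over all genes. None passed among 10 snoRNP proteins, 17 decay factors, 19 paraspeckle proteins, 18 speckle and SR proteins and 12 other long non-coding RNAs, with medians of −0.11, −0.15, 0.053, −0.074 and −0.11. Only 0.749% of all genes passed in this comparison, so few or no calls in lists of this size do not set them apart. At 24 h 0 genes of these 6 lists passed by edgeR or DESeq2, with 1, 2, 2, 0, 1 and 0 at an unadjusted p under 0.05 in the order above. Of all 12118 genes, 0.107% passed there by edgeR, and 815 had an unadjusted p under 0.05.

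Between 6 h and 24 h in vehicle cells, transcripts of 7 of 10 proteins that bind snoRNAs fell and 0 rose, with a list median of −0.61 beside −0.025 over all genes, of which 26.7% passed. *Nolc1*, a chaperone of snoRNPs, fell by 0.63 on the log2 scale (edgeR FDR = 0.00209), *Nop58*, a core box C/D protein, by 0.52 (FDR = 0.00285), *Gar1*, a core box H/ACA protein, by 1.26 (FDR = 0.00359) and *Nhp2*, another, by 0.64 (FDR = 0.00502). In CBD-treated cells, where 53.6% of all genes passed, 7 of 10 fell as well (median −0.38), *Gar1* by 1.09 (FDR = 7.82e-07). Among other snoRNA hosts in vehicle cells, *Snhg17* fell by 1.02 (FDR = 0.0119), and in CBD-treated cells 4 rose and 1 fell. *Zfas1* rose by 0.78 there (FDR = 3.13e-10), and its response to CBD differed between the times by 0.83 (standard error 0.17, FDR = 0.0511).

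The counts of the remaining lists in vehicle cells stand beside the same 26.7% of all genes, and no list was tested against it. Of 20 paraspeckle proteins, 2 rose and 6 fell (median −0.18). *Dazap1* rose by 0.94 (edgeR FDR = 0.000243), and the RNA-binding proteins *Hnrnpk* and *Taf15* fell by 0.54 and 0.77 (FDR = 0.00438 and 0.0151). Of 18 speckle and SR proteins, 1 rose and 6 fell (median −0.13), with *Srsf1*, a splicing factor of nuclear speckles, lower by a log2 fold change of −0.67 (FDR = 0.0232). Of 17 decay factors, 1 rose and 2 fell, with *Upf3b* at 0.44 (FDR = 0.0338) and *Rbm8a* at −0.46 (FDR = 0.0249). Of 13 other long non-coding RNAs, *Mir99ahg* rose by 1.304 (FDR = 5.17e-05) and *H19* by 0.82 (FDR = 0.0476), while *Kcnq1ot1*, the antisense RNA of an imprinted domain, fell by 1.46 (FDR = 0.000243), and 3 more fell.

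**Figure D5:**
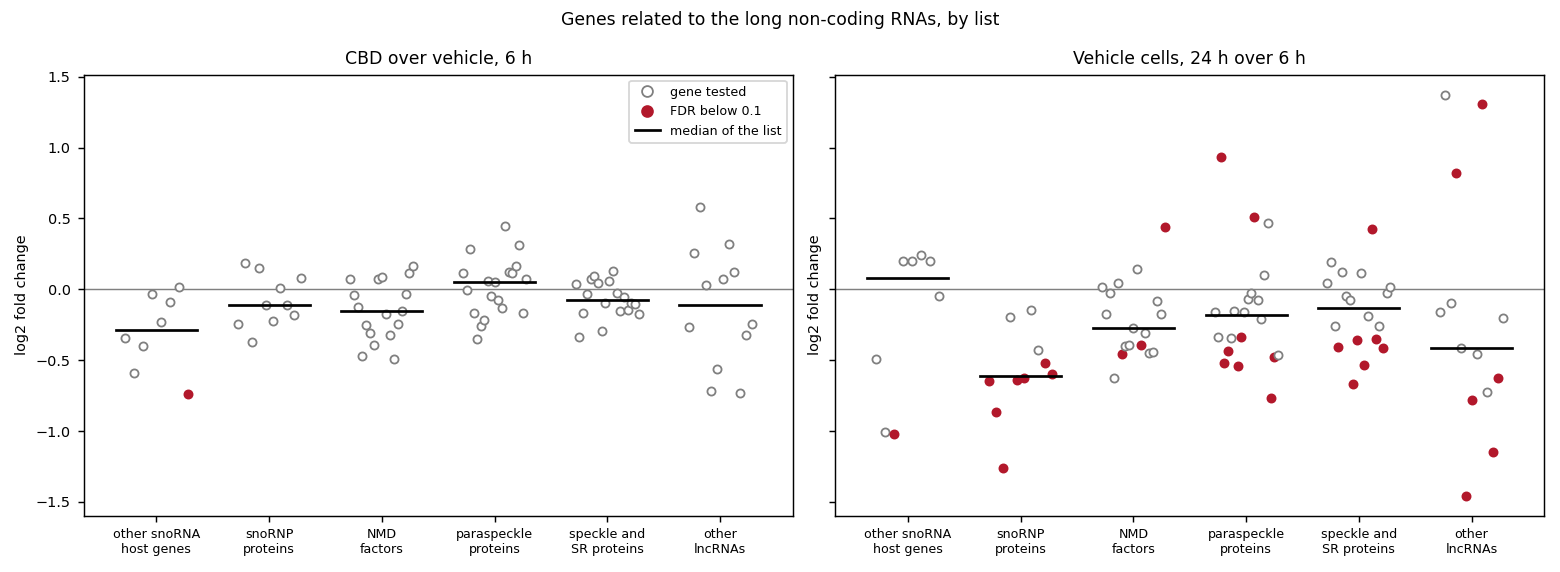
Log2 fold changes of the genes of 6 related lists, for CBD over vehicle at 6 h (left) and for vehicle cells at 24 h over 6 h (right), with 1 point per gene tested, a bar at each list's median and filled points where the FDR was below 0.1. At 6 h *Zfas1*, at −0.74, is the filled point, and over time 7 of 10 snoRNP proteins are filled and below 0.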

How the data were processed

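The authors trimmed reads with Flexbar, mapped them to GRCm39 with STAR 2.7.5c, and counted them per Ensembl gene with HTSeq 1.99.2. The deposited values are raw counts per gene and library, with no normalization. Read totals ranged from 1839621 to 4420675, and precision is limited by counts of 8 to 81 reads for *Snhg15*. Summary lines for reads outside genes, ambiguous or not unique were left out of library sizes and used only for shares.

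Libraries were grouped by their treatment labels. Counts were analyzed in R 4.3.3 with edgeR 4.0.16 (filterByExpr on groups, TMM, quasi-likelihood F-test) in 15 libraries per time, and in all 30 for the comparisons of times. The Benjamini-Hochberg FDR covered every gene in the fit, with a threshold of 0.1, and confidence intervals are at 95%. Relations used log2 CPM with a prior count of 2 and 100000 permutations within groups. The 30 pairs of replicates differed by more than counting noise (chi-square per gene 2.13 to 10.7), so none was counted as 1 library. Steps were tested on simulated data.

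The members, lists, tests and named genes were chosen with earlier results of these data known. Named were all 7 members, up to 4 genes per list and comparison that passed with the smallest p, the 3 genes most like each member, and genes beside a member. Alternatives were DESeq2 1.42.0, RLE scaling, no filter, at least 10 counts in every library, covariates for reads outside genes or log2 reads, a fit of only the compared groups, removal of mitochondrial genes, and each library left out. Leaving out the 3 least similar libraries was chosen after seeing the data. Positions and 3′ ends came from GENCODE M21 (GRCm38) and promoters from RefSeq (GRCm38.p6), which held 6 of 7 members and not *Neat1*. Some neighboring and listed genes and 1 sequence are not reported here.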

Additional observations from a re-analysis of the deposited data

Results flagged for a closer look

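Among the members and the listed genes, the response to CBD differed between the times for 2 by the test of the difference itself (edgeR interaction of CBD and time over 30 libraries), which 30 of all 12790 genes passed. *Snhg1* had a difference of 0.71 on the log2 scale (standard error 0.17, FDR = 0.0755), with CBD over vehicle at −0.47 at 6 h and 0.24 at 24 h, and 0.49 (FDR = 0.441) without vehicle replicate 3 at 6 h. It missed the threshold in 15 of 30 fits that left out 1 library and with reads outside genes as a covariate (0.58, FDR = 0.175). *Zfas1* had a difference of 0.83 (standard error 0.17, FDR = 0.0511), with −0.74 at 6 h. Whether this result rests on vehicle replicate 3 at 6 h, as that of *Snhg1* did, was not examined.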

How the results depend on the processing

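No paired analysis was possible because no label numbers the replicates, so nothing ties a library of one group to one of another. For the mean of the 4 doses, a fit with only the libraries compared is the same as the analysis given. Of 526 values for 63 single-gene results under other settings, 488 kept their direction and side of the threshold. A further 11 changed direction, 18 gained a call and 9 lost one. Most of the 63 results were not called in the main analysis, so keeping their side mostly meant staying uncalled. Of the 28 tests by dose at 6 h, 1 member test passed, against 3 with no filter, 0 with at least 10 counts in every library (*Snhg15* is then not tested), 4 with reads outside genes as a covariate, 3 with log2 reads as a covariate, 0 with only the libraries compared and 3 without the 3 least similar libraries; leaving out 1 library gave 0 to 1. Over the 4 doses at 6 h, 1 member passed, against 2 by DESeq2, 3 with no filter, 0 with at least 10 counts, 3 with reads outside genes and 2 with log2 reads, and 0 to 2 without 1 library. Related genes over the doses at 6 h numbered 1, against 2 by DESeq2, 2 with no filter, 3 with reads outside genes, 9 without the 3 least similar libraries and 1 to 6 without 1 library (6 without vehicle replicate 3). With no filter, 1 member passed for any difference among the doses at 6 h, 1 by dose at 24 h and 1 for any difference at 24 h. Leaving out 1 library gave 0 to 1 for each of the tests by dose, the slope and any difference at 24 h, the 1 in each being without CBD 3 µM replicate 2. Related genes between the times in vehicle cells numbered 32, against 17 with only the libraries compared and 19 to 32 without 1 library. For the difference between the times in the response to CBD, 1 member passed, against 0 with reads outside genes, 0 without the 3 least similar libraries and 0 to 1 without 1 library. The 1 relation that passed became 0 within 6 h, 0 within 24 h and 0 without the 2 farthest libraries. Over all genes, tests that passed at 6 h over the doses numbered 90, against 578 without the 3 least similar libraries and 51 to 304 without 1 library. They numbered 132 by DESeq2, 263 with no filter, 329 with reads outside genes and 148 with log2 reads.

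Some directions turned, none of them of a called value, and for *Snhg8* from values as far from 0 as −0.67. With log2 reads as a covariate, *Gas5* (0.0028) and *Malat1* (−0.041) over the doses at 24 h, and *Snhg12* between times in vehicle (−0.040), in CBD-treated cells (−0.031) and in their difference (0.0095) changed sign. With reads outside genes, *Snhg8* over the doses at 24 h was 0.22 and *Neat1* between times in vehicle −0.066. Without the 3 least similar libraries, *Snhg8* was 0.081 over the doses at 6 h, 0.11 between times in vehicle and −0.24 for their difference, and *Neat1* between times in vehicle −0.049. With 1 library left out, ranges that crossed 0 were −0.12 to 0.034 (*Gas5*), −0.067 to 0.26 (*Snhg15*) and −0.075 to 0.14 (*Malat1*) over the doses at 24 h, and −0.23 to 0.011 for *Malat1* at 3 µM and 6 h. Between the times in vehicle they were −0.78 to 0.12 (*Snhg8*), −0.060 to 0.27 (*Snhg12*) and −0.045 to 0.13 (*Neat1*). In CBD-treated cells they were −0.22 to 0.012 (*Snhg8*) and −0.040 to 0.056 (*Snhg12*), and for the difference in response −0.21 to 0.69 (*Snhg8*) and −0.25 to 0.071 (*Snhg12*). The causes were not tested.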
